A study of Homo sapiens and Mus musculus with 6 samples.

Results

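The promoters of the 6 Dlx genes, Dlx1 to Dlx6, were followed in promoter Capture Hi-C (CHi-C) of mouse embryonic stem cells (mESCs) and of the human lymphoblastoid line GM12878. A call was kept when the list named a Dlx gene at either end, and 93 of the 101841 mESC calls and 46 of the 92929 GM12878 calls met this rule. Promoter CHi-C enriches a proximity-ligation library for HindIII fragments that carry promoters (baits), and a call is a bait and a second fragment (the other end) whose ligation counts exceed the modelled background with a CHiCAGO score of at least 5. The mESC list joins 2 biological replicates of J1 cells, strain 129S4/SvJae, which were grown in serum on irradiated fibroblast feeders. The GM12878 list joins 3 biological replicates of this Epstein-Barr virus-transformed B cell line, and neither line carried a treatment or an edited allele. A pre-capture Hi-C dataset from 1 mESC sample was also used. Each cell type has a single joint set of calls, so no value below has a spread between replicates, and none was tested. The calls hold no expression values, so the labelled cell types could not be checked against markers.

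Dlx genes encode homeodomain transcription factors that pattern the forebrain, the branchial arches and the limbs, and Dlx1, Dlx2, Dlx5 and Dlx6 drive the making of GABAergic interneurons. They lie as convergently transcribed pairs, each on the chromosome of a Hox cluster: Dlx1/2 with Hoxd, Dlx3/4 with Hoxb and Dlx5/6 with Hoxa. In ESCs such developmental regulators are mostly silent and covered by Polycomb proteins. Hox genes encode homeodomain factors that give the body axis and limbs their positional identity.

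In mESCs the list named Dlx1, Dlx3 and Dlx5, each on 1 fragment, and did not name Dlx2, Dlx4 or Dlx6. The fragments (mm9) were chr2:71359879-71367853 for Dlx1 with 42 calls, chr11:94965506-94988561 for Dlx3 with 19 calls, and chr6:6829164-6833001 for Dlx5 with 32 calls. Annotated starts of the other members lie in baits that the list names after something else. The Dlx2 start is in the Dlx1as bait chr2:71374424-71388212 (31 calls), the Dlx4 start in the A730090H04Rik bait chr11:95003823-95007583 (32 calls), and the Dlx6 start in the bait chr6:6808379-6814655 (36 calls), whose list name is uce. These are called the Dlx2, Dlx4 and Dlx6 start baits below and are kept apart from the 93 calls. A second bait named uce, chr2:71371785-71374423, lies between Dlx1 and Dlx2 over an exon of Dlx1 and holds no annotated start, and the Dlx6os1 bait chr6:6814914-6820464 holds exons of Dlx6. With the start fragments added, the pairs had 85, 50 and 66 calls. These 8 baits and an unbaited fragment with further Dlx1 starts all end at HindIII sites of mm9.

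The bases before the annotated starts of the 3 named genes and of Hoxd13 are a short part of what their baits hold. Hoxd13 is the Hoxd promoter with the highest score across the 3 baits at Dlx1/2. Each run is the 250 bases upstream of the start of the first listed transcript, 5′ to 3′ on the gene's strand, from mm9, with CG dinucleotides in capitals.
Dlx1 (chr2:71365920-71366169, plus strand): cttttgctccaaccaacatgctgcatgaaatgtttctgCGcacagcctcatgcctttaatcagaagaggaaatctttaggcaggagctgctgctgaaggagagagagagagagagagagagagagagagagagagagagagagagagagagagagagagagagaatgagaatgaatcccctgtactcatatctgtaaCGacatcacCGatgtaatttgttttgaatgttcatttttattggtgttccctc
Dlx3 (chr11:94981153-94981402, plus strand): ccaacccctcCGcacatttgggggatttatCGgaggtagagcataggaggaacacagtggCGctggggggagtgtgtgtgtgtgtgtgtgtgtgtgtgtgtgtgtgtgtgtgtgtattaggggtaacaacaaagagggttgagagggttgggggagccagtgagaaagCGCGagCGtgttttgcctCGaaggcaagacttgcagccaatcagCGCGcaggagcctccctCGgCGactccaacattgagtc
Dlx5 (chr6:6832086-6832335, minus strand): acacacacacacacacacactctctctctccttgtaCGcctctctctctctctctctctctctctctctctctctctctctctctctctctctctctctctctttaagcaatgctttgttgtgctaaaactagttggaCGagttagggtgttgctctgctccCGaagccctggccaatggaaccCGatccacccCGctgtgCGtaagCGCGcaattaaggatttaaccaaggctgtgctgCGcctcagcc
Hoxd13 (chr2:74506117-74506366, plus strand): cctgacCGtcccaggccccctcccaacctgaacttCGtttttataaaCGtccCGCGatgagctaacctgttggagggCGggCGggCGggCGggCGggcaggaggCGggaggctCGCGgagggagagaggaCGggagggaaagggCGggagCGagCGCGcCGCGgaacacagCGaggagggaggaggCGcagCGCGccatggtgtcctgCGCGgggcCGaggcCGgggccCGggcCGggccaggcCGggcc
The Dlx1 window holds 3 CG sites, the Dlx3 window 11, the Dlx5 window 9 and the Hoxd13 window 31, against a median of 10 over 13955 such windows of protein-coding genes. The Dlx2, Dlx4 and Dlx6 windows hold 24, 7 and 3. As many or fewer sites as in Hoxd13 are found in 94.6% of windows, and as many or fewer as in Dlx1 in 27.2%. The core homeodomain word TAATTA, the same on both strands, is in none of these windows and in 4.08% of all windows.

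The 3 gene pairs differed most in how far they reached. Of the 93 mESC calls, 41 spanned more than 1 Mb, and in the whole list 3.37% of calls did. The Dlx1/2 pair had 25 of 42 calls over 1 Mb, 1 of them over 10 Mb, the Dlx5/6 pair 16 of 32, 14 of them over 10 Mb, and the Dlx3/4 pair 0 of 19. A share of 0.681% of all calls lay over 10 Mb. Median distances were 2531 kb for Dlx1, 124 kb for Dlx3 and 1016 kb for Dlx5, against 139 kb for the list. The Dlx1 median lies in a gap between calls at 1940 and 3122 kb, and the Dlx5 median in a gap between calls at 877 and 1155 kb. None of the 93 calls joined different chromosomes, which allows a share of up to 3.23%, and 0.569% of the list did.

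**Figure D1:**
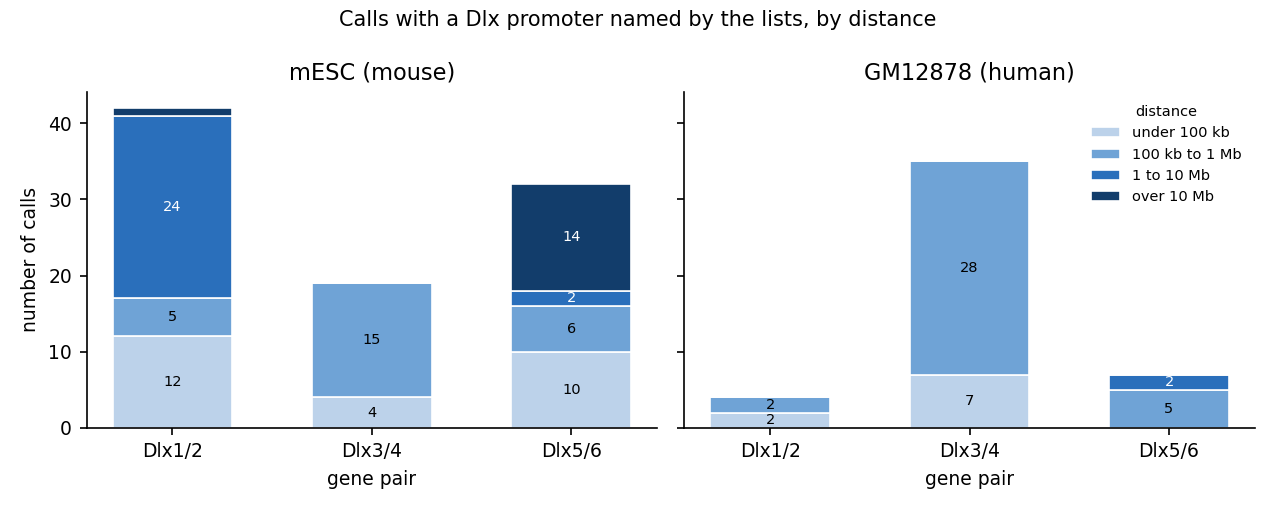
Number of calls (y axis) with a Dlx promoter named by the lists for the 3 gene pairs (x axis), in mESCs and in GM12878 cells, divided by the distance between fragment midpoints. In mESCs the Dlx1/2 bar is mostly calls of 1 to 10 Mb with 1 call over 10 Mb at its top, the Dlx5/6 bar ends in 14 calls over 10 Mb, and the Dlx3/4 bar has none over 1 Mb.

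Other homeobox families of the same list also reached far. Over 1 Mb were 44.1% of Dlx calls (95% Wilson interval 34.4 to 54.2), 27.5% of Pax calls (22.2 to 33.4), 39.2% of LIM homeobox calls (32.9 to 45.8) and 30.8% of Nkx calls (24.9 to 37.5). Over 10 Mb were 16.1% of Dlx, 5.33% of Pax, 20.3% of LIM homeobox and 3.98% of Nkx calls. The Dlx interval overlaps those of LIM homeobox and Nkx promoters. These intervals cover counting error only, and the differences between families were not tested.

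The highest read counts lay near, at 9.24 kb for Dlx1, 28.7 kb for Dlx3 and 19.6 kb for Dlx5. Among called pairs counts did not fall steadily with distance, and Dlx1 and Dlx5 had a second, far group of partners. Pairs under the score limit are not listed, so how the counts of all pairs fall with distance cannot be seen. A read count here is the authors' rounded combination over replicates, and it is not corrected for uneven capture between baits. The Dlx1 fragment had 132 reads with the bait between Dlx1 and Dlx2 at 9.24 kb, 7 reads with Pdk1 (a mitochondrial kinase) at 347 kb and 14 reads with Sp9 at 1.75 Mb. The median read count was 10 for Dlx1/2, 18 for Dlx3/4 and 7.5 for Dlx5/6, with median scores of 8.22, 8.34 and 11.5. Across the list the medians were 13 reads and a score of 6.62.

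**Figure D2:**
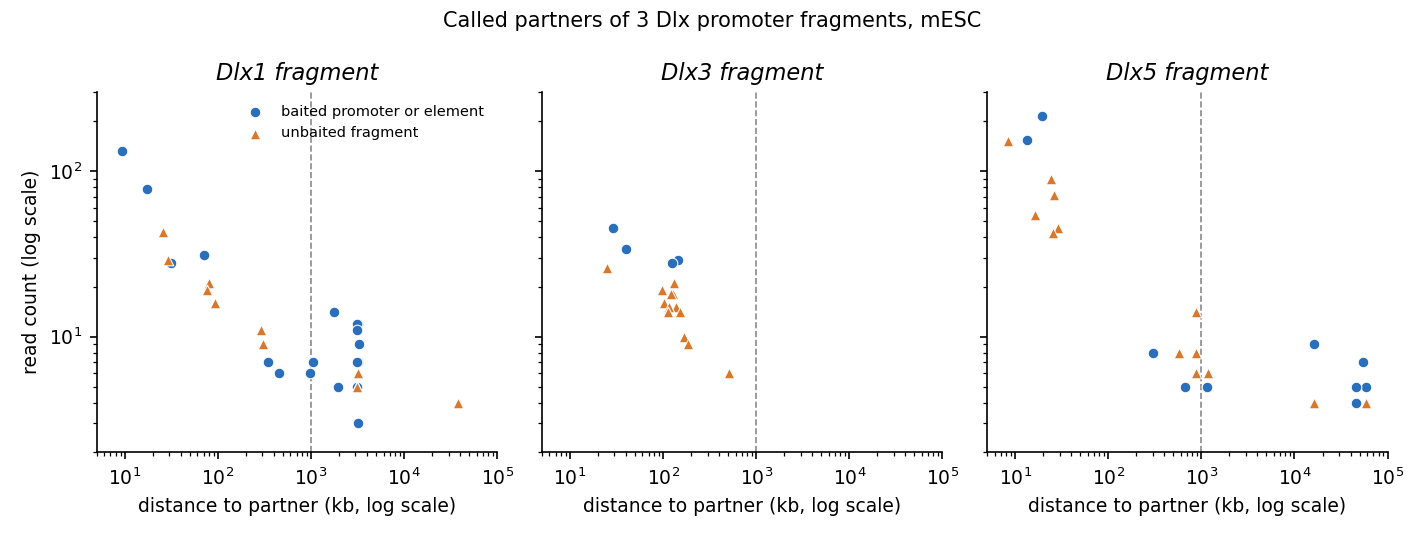
Read count (y axis, log scale) against distance (x axis, kb, log scale) for each distinct partner fragment of the Dlx1, Dlx3 and Dlx5 fragments in mESCs, with circles for baited partners, triangles for unbaited ones and a dashed line at 1 Mb. Points of Dlx1 gather from 3.12 to 3.24 Mb at 3 to 12 reads, those of Dlx5 beyond 10 Mb at 4 to 9 reads, and no point of Dlx3 lies right of the line.

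Dlx1 met the Hoxd cluster, whose nearest start lies 3134 kb away. Of the 17157 mESC baits, 7.75% took part in any call over 1 Mb within a chromosome, as the Dlx1 and Dlx5 baits did and the Dlx3 bait did not. The Dlx1 fragment was called with 12 fragments of the cluster (Evx2 to Hoxd1, chr2:74497476-74601037) in 19 calls, while 0.175% of all baits had any call over 1 Mb or between chromosomes with a promoter named after a Hox gene. With the Hoxd13 fragment it had 11 reads at 3.14 Mb, scored 18.34 from the Dlx1 bait and 15.52 from the Hoxd13 bait. With Hoxd12 it had 12 reads (21.62 and 16.57) and with Hoxd3 12 reads (21.74 and 16.57). The posterior genes Hoxd13 and Hoxd12 are known for digit and genital patterning, and Hoxd3 for the neck vertebrae. Hoxd10 and the Gm14396 fragment, which carries the Hoxd9 start, had 7 reads each, as did Evx2, a homeobox gene next to Hoxd13. The 6720416L17Rik fragment with the Hoxd1 start had 9 reads (13.54 and 9.41). Hoxd8 had 3 reads and was called from its own bait only. Across all mESC calls of 1 to 10 Mb the median was 6 reads with a score of 7.86, and the 90th percentile was 13 reads and a score of 22.7.

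The other baits of the pair were called with the same cluster. The bait between Dlx1 and Dlx2 was called with 21 Hoxd fragments, the Dlx2 start bait with 18 and the Dlx1 bait with 12, and 11 of the 24 fragments called with any of them were called with all 3. The Hoxd13 fragment had 19 reads with the bait between the genes (score 46.09), 12 with the Dlx2 start bait (26.31) and 11 with Dlx1. The Hoxd10 fragment had 14, 11 and 7 reads in that order, and the Hoxd9 start fragment 17, 8 and 7. At the Hoxd1 start the order turned, with 5, 5 and 9 reads. These counts are not corrected for uneven capture between baits, so their order does not rank the contacts. An unbaited fragment next to the Dlx1 bait, which holds further Dlx1 starts, was called from 8 baits between Evx2 and Hoxd1, with 14 reads for Hoxd13 (29.32). These baits are neighbours on 1 chromosome in the same libraries and do not replicate one another.

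**Figure D3:**
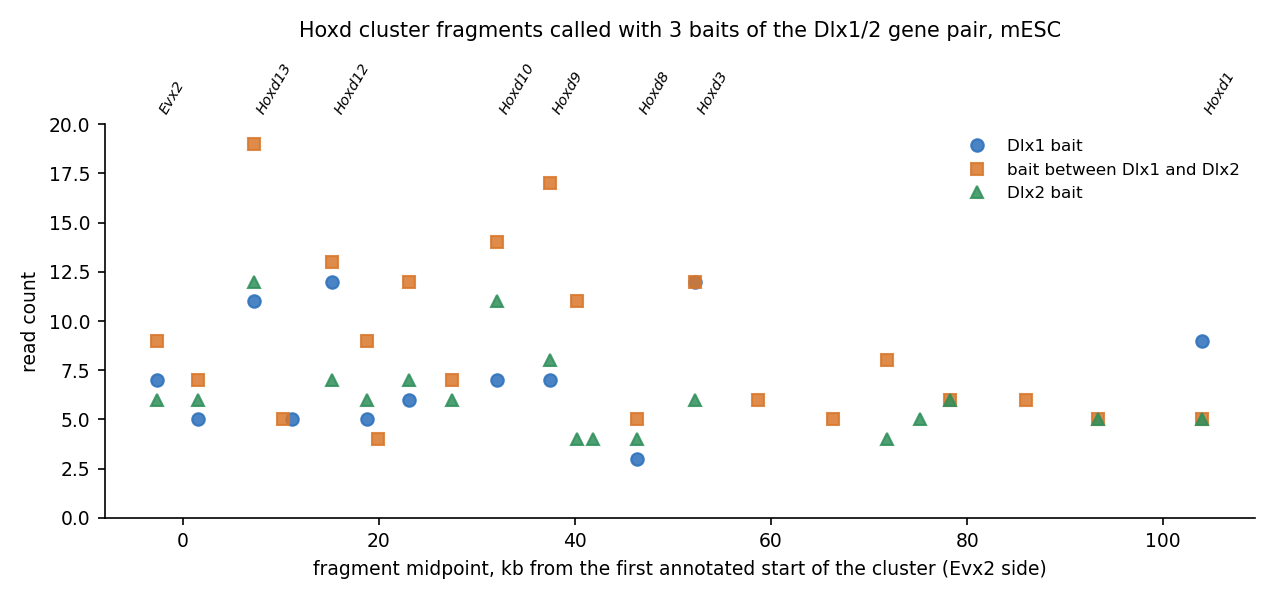
Read count (y axis) of each Hoxd cluster fragment called with the Dlx1 bait, the bait between Dlx1 and Dlx2, and the Dlx2 start bait, against the fragment's midpoint in kb from the first annotated start of the cluster (x axis), with fragments that carry gene starts named above. The bait between the genes has the highest count at Hoxd13 (19 reads) and at the Hoxd9 start (17 reads), and fragments without a point were not called.

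Few other baits in this stretch met the cluster. Of 17 further baits in the list within 1 Mb of Dlx1, 0 had a call with a Hoxd cluster fragment. Of 53 other baits between 1 and 5 Mb from the cluster, 3 did: Sp9 with 17 calls, Gm13705 with 2 and Wipf1 with 1, against 19, 28 and 23 calls for the Dlx1 bait, the bait between the genes and the Dlx2 start bait. Seen from the cluster, 30 of the 54 calls over 1 Mb made from its baits (55.6%) ended in a Dlx1/2 fragment. By shared fragments, the baits over 1 Mb away most like Dlx1 were Hoxd3 (15 of the 31 fragments called with Dlx1, 48.4%, and 33.3% of the 45 called with Hoxd3), Mir10b (14, 45.2% and 50% of 28) and Hoxd13 (14, 45.2% and 37.8% of 37). Baits of the cluster can also be called with their own neighbours there, so this likeness is not separate from the Dlx1 calls with Hoxd.

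Sp9 was the remaining strong far partner of Dlx1/2. Sp9 and Sp5 encode zinc finger factors, and Sp9 acts in limb outgrowth and in interneurons. The Sp9 fragment had 14 reads with Dlx1 (19.34 and 15.82) and 24 reads with the bait between the genes, whose score of 48.2 was the highest among the calls of the Dlx baits and their neighbours. It was not called with the Dlx2 start bait. Sp5 at 1.05 Mb had 7 reads with Dlx1, and Lrp2, which encodes the endocytic receptor megalin, had 5 reads at 1.94 Mb. The start of Gad1, the enzyme that makes GABA, lies in the 1500002O10Rik bait, which had 6 reads with Dlx1 at 965 kb.

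Beyond 10 Mb the Dlx1/2 pair reached LIM homeobox genes. Dlx1 had 4 reads (score 7.81) with a fragment in an intron of Lmx1b, 37.9 Mb away. The bait between the genes had 5 reads with the Lmx1b promoter (score 13.64, called from both ends) and 4 with Lhx2 at 33.2 Mb (9.88, both ends). Lmx1b sets the dorsal side of the limb, and Lhx2 acts in the forebrain and eye. The Dlx2 start bait had 4 reads with an unbaited fragment that holds an annotated Lmx1b start (9.84). The Prdm12 bait, for a histone methyltransferase family member, at 39.9 Mb was called only with the unbaited Dlx1 fragment, with 4 reads. Over all mESC calls beyond 10 Mb the median was 5 reads and a score of 9.2.

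Near the genes, the highest scores of the Dlx1 fragment under 1 Mb were with the U6.595 bait, which carries a Metap1d start (31 reads, 71.1 kb, score 11.88), Pdk1 (7 reads, 11.44) and Rapgef4 (6 reads, 455 kb, 9.3). All 3 scores are from the partner's side, and U6.595 was called from the Dlx1 bait too (7.06). The Dlx1 and Dlx2 start baits were called with each other at 17.5 kb with 78 reads.

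Dlx5 and Dlx6 met promoters 16.4 to 58.8 Mb away. The Dlx5 bait had 9 calls over 10 Mb of its own and the Dlx6 start bait 11, where 226 baits had any and the highest number was 29: 12 baits had more than Dlx5 and 6 more than Dlx6. Of all mESC baits, 1.4% took part in a call over 10 Mb. Across the Dlx5 bait, the Dlx6os1 bait and the Dlx6 start bait, 11 baited partners lay over 1 Mb away. All 3 baits were called with Fezf1, A930038C07Rik and the Dync1i1 promoter, and 17 of the 22 pairs of bait and partner were called from both ends.

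Fezf1, a forebrain zinc finger repressor gene, had 9 reads with Dlx5 at 16.4 Mb, scored 25.51 and 26.54, and 9 and 7 reads with the Dlx6os1 and Dlx6 start baits. A930038C07Rik at 58.8 Mb had 5 reads with Dlx5 (14.72 and 15.77), 5 with Dlx6os1 and 8 with the Dlx6 start (30.93 and 32.16). Fam190a at 54.3 Mb had 7 reads with Dlx5 (24.52 and 25.03) and 4 with the Dlx6 start. These 3 partners and Zfp467 were named after their values were seen. The 90th percentile of all mESC calls over 10 Mb was 9 reads and a score of 25.7, so the Dlx5 calls with Fezf1 and Fam190a lie close to it.

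At the Hoxa cluster, 45.3 Mb from Dlx5, the baits of the pair were called with different promoters, Evx1 and 2700086A05Rik apart. Hoxa2, which patterns the second branchial arch, had 5 reads with Dlx5 (12.02 and 12.28) and was not called with the other baits. Hoxa4 had 4 reads with the Dlx6 start bait only, and so did the Mir196b bait, which carries a Hoxa9 start, with 7 reads (21.34 and 21.56). Evx1, a homeobox gene beside Hoxa13, had 4 reads with both Dlx5 and the Dlx6 start. The absence of a call at 4 to 7 reads does not show that a contact differs between these baits, because the counts of uncalled pairs are not listed. Of 5 other baits in the list within 1 Mb of Dlx5, 0 had a call with the cluster, and of 855 other baits on the chromosome over 1 Mb from it, 5 did. Zfp467 had 18 calls with the cluster, Fezf1 and Vax2os1 6 each, Emx1 2 and Sspo 1, against 9 for the Dlx6 start bait, 4 for Dlx5 and 2 for Dlx6os1. Seen from the cluster, 7 of the 97 calls over 1 Mb made from its baits (7.22%) ended in a Dlx5/6 fragment.

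**Figure D4:**
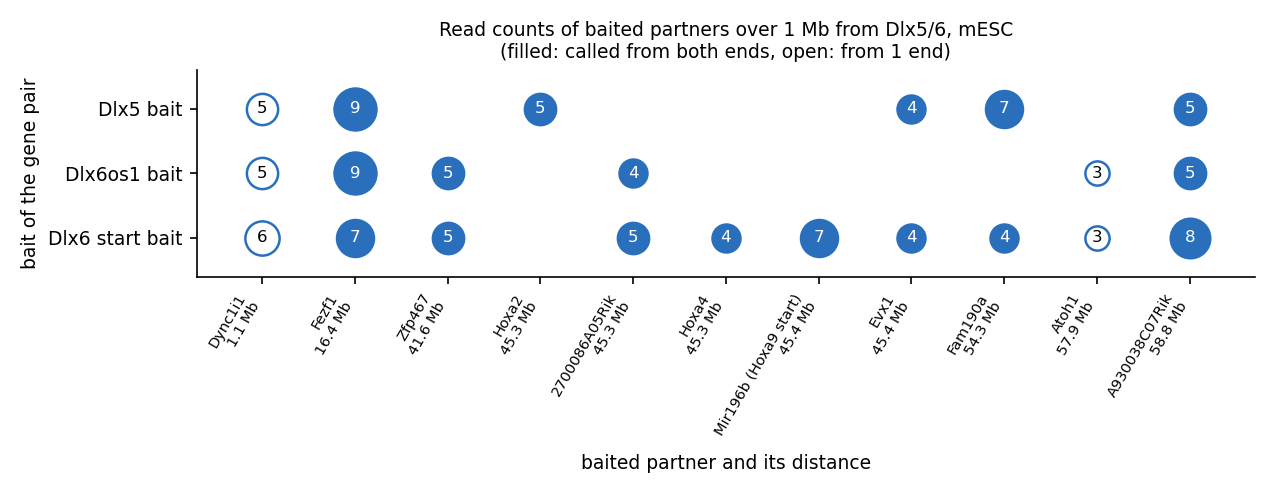
Baited partners over 1 Mb from the Dlx5/6 pair (x axis, ordered along the chromosome, with the distance in Mb) for the Dlx6 start, Dlx6os1 and Dlx5 baits (y axis), with the read count in each circle, circle area in proportion to it, filled when called from both ends and open when from 1. Counts run from 3 at Atoh1 to 9 at Fezf1, and a missing circle means no call.

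Atoh1, a proneural bHLH gene, had 3 reads with the Dlx6os1 and Dlx6 start baits at 57.9 Mb, and Zfp467 had 5 with each at 41.6 Mb. By shared fragments, the far baits most like Dlx5 were Fezf1 (6 of the 25 fragments called with Dlx5, 24%, and 33.3% of its own 18), then 2700086A05Rik and Mir196b in the Hoxa cluster (5 each, 20%, and 9.8% and 8.77% of their own).

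Near Dlx5 the strongest partner was the other gene of the pair. The Dlx5 and Dlx6 start baits, 19.6 kb apart, had 215 reads with each other, with scores of 32.93 from Dlx5 and 32.39 from the Dlx6 start. Both unbaited fragments that followed by score lay in introns of Dlx6os1, with 90 reads at 24 kb (25.74) and 72 reads at 26 kb (20.3). On the same side, Shfm1, which encodes a small proteasome subunit, had 8 reads at 302 kb (6.85). On the other side, Tac1, the tachykinin gene, had 5 reads at 674 kb (5.08).

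The 3′ part of Dync1i1, a gene for a dynein intermediate chain, was an unbaited partner of Dlx5/6 in both species. Exons in this part of the gene are known as limb enhancers of Dlx5 and Dlx6. In mESCs the fragment chr6:5951967-5956769 had 14 reads with Dlx5 at 877 kb (score 18.57), 12 with the Dlx6os1 bait (16.83) and 10 with the Dlx6 start bait (10.64). In GM12878 cells the DLX6 bait chr7:96632605-96644983 (hg19) had 14 reads with chr7:95701863-95705860 at 935 kb (11.95). Both fragments hold exon 15 of the gene, which has 141 bases in each species, and the 2 exons are 97.9% identical with 3 differing bases, in capitals, and are shown because they mark the match between the fragments.
Dync1i1 exon 15 (mm9, chr6:5956270-5956410, plus strand): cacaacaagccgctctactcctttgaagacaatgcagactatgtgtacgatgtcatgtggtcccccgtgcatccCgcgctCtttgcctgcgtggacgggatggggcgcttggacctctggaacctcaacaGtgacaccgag
DYNC1I1 exon 15 (hg19, chr7:95705369-95705509, plus strand): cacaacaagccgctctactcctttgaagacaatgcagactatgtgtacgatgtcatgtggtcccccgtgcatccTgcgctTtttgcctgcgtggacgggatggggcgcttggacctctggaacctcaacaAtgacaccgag
The mouse fragment that follows, chr6:5956770-5961861, holds exon 16 and had 8 reads with Dlx5 (8.03). The human fragment that follows lies in the intron and scored 5.32. The Dync1i1 promoter itself had 5 reads with Dlx5 in mESCs at 1.15 Mb (6.71) and DYNC1I1 3 reads with DLX6 in GM12878 cells at 1236 kb (6.68), and Shfm1 was called in both as well (SHFM1 with 10 reads, 5.17). A shared fragment position does not show that the contact has the same role in the 2 cell types.

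Dlx3, known from tooth, hair, bone and placenta, had CHi-C calls in its own neighbourhood only. Its 19 calls ran from 25 to 516 kb with 6 to 45 reads, and none met a Hoxb fragment, although the cluster begins 1079 kb away and 10 baits named after Hoxb genes made 407 calls, 71 of them over 1 Mb. The highest scores were with an intergenic fragment at 132 kb (21 reads, 14.68), with Tac4 at 146 kb (29 reads, 13.12) and with an intergenic fragment at 128 kb (18 reads, 11.53). Tac4 encodes a tachykinin precursor. Of the 19 calls, 8 lay in the 112 kb between the Dlx4 start bait and Tac4, with 14 to 21 reads, and 12 of the 31 other calls of the Dlx4 start bait fell there with 20 to 33 reads. Ppp1r9b, which encodes spinophilin, had 28 reads with Dlx3 at 124 kb (10.99 and 7.23), and Itga3, an integrin gene, 34 reads at 39.8 kb (5.59). The Dlx3 and Dlx4 start baits were called at 28.7 kb with 45 reads (6.5). A single call left the region, from Ccdc43 to the Dlx4 start bait at 7552 kb with 3 reads (5.39).

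In GM12878 cells DLX3/4 had the most calls by list names. DLX3/4 had 35 calls, DLX5/6 had 7, all of the DLX6 fragment, and DLX1/2 had 4, and no fragment with a DLX5 start is in the list. With the unnamed bait between DLX1 and DLX2 and a further DLX1 start fragment added, DLX1/2 had 30, so this order depends on which fragments the list names. None of the 46 calls met a HOX fragment, 2 exceeded 1 Mb (both in DYNC1I1), none exceeded 10 Mb and none joined different chromosomes, where 0 of 46 allows a share of up to 6.52%. Over the whole list 1.64% of calls exceeded 1 Mb, 0.109% exceeded 10 Mb and 0.31% joined different chromosomes. Of all baits 4.29% took part in a call over 1 Mb, DLX6 among them, and 0% of its 16616 baits had a call over 1 Mb with a promoter named after a HOX gene. So the human list holds few calls of this kind for any promoter. Species, cell type and libraries all differ between the lists and cannot be told apart.

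The human DLX3 fragment chr17:48064697-48075187 met the same block beside TAC4. Of its calls, 13 fell in the 110 kb between TAC4 and DLX4, with 25 to 63 reads and scores up to 32.02, and TAC4 itself had 42 reads at 146 kb (8.49 and 17.86). The strongest was an intergenic fragment at 134 kb (63 reads, 32.02), and the next after TAC4 lay at 102 kb (48 reads, 17.36). ITGA3 had 26 reads at 65.7 kb (9.54) and NXPH3, a neurexophilin gene, 11 reads at 414 kb (5.9), and in mESCs the Dlx4 start bait had 13 reads with Nxph3 at 373 kb (12.07). DLX4 made 1 call, with DLX3, at 26.2 kb with 36 reads (11.23). With the start baits included, 3 of the 11 mESC and 13 GM12878 partner genes of Dlx3/4 were shared by name, 2 of 16 and 5 for Dlx5/6, and 0 of 19 and 4 for Dlx1/2. The GM12878 list names 8, 6 and 11 of these mESC partner genes at all, and of all mESC pairs of genes named in both lists 31.2% were called in GM12878 cells too. With so few partners, no difference of the Dlx pairs from this share can be read.

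At DLX1/2 in GM12878 cells the METAP1D/SLC25A12 fragment was called with DLX2 at 106 kb (22 reads, 9.72) and with DLX1 at 84.3 kb (5.13). DLX2 was also called at 339 kb with AC068039.4 (7.76) and at 9.59 kb with a bait between the 2 genes (6.22). That bait, chr2:172956858-172963112, carries no gene name in the list and had 26 calls. None of them exceeded 1 Mb, and the highest score, 34.18, was with AC068039.4 at 329 kb. Its mouse counterpart in position, the bait between Dlx1 and Dlx2, had 54 calls, 41 of them over 1 Mb.

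No CHi-C call joined fragments of different Dlx pairs in either list, start baits included. The pairs lie on different chromosomes, and none of their calls was between chromosomes. In mESCs 57% of the Dlx calls (46.8 to 66.6) joined 2 baits, and in GM12878 cells 39.1% (26.4 to 53.5). By pair the mESC shares were 71.4% for Dlx1/2, 31.6% for Dlx3/4 and 53.1% for Dlx5/6. Keeping calls with Dlx at either end raises these shares, because every call made from a partner joins 2 baits. Such calls were 31 of 93 in mESCs and 13 of 46 in GM12878 cells. The shares of all calls, 36.3% and 29.4%, were not selected this way, so no excess can be read from them. Of the 41 Dlx calls over 1 Mb, 18 ended in a promoter from a list of Hox, other homeobox and developmental regulator genes. Counting each fragment pair once left 10. Over both ends of all mESC calls over 1 Mb, 19.4% held such a promoter. The list was chosen with earlier results of these data known, and the 2 shares count ends differently, so no enrichment can be read from them. Of these 18, 14 were calls of Dlx1, most of them with the Hoxd cluster. No pair of the 112 distinct fragment pairs over 1 Mb shared a word of 50 bases, simple repeats aside.

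In the Hi-C data most Dlx contacts over 10 Mb lay in called bin pairs, and those with Hoxd did not. Of the calls of the named fragments over 10 Mb, 15 of 15 fell in a pair of 1-Mb bins called at an FDR under 0.05, as did 81.8% of all mESC calls that far. With the start baits 34 of 37 did, and the calls of the Dlx6 start bait with Zfp467 and Grm8 were the exceptions. Of the calls between 1 and 10 Mb, 0 of 26 did (95% Wilson upper limit 12.9%), against 53.7% of all such calls. The Dlx calls spanned 1053 to 3237 kb, so the 2 shares cover unlike distances. No cis bin nearer than 20 Mb was called with the Dlx1/2 bin, and none nearer than 11 Mb with the Dlx5/6 bin. The lack of a called pair is therefore not particular to Hoxd. The Dlx1 calls with Hoxd all fall in the same pair of bins, so they are not the separate trials that the Wilson limit assumes. Under 1 Mb, 13 of 16 Dlx5 calls lay in a called pair of 25-kb bins, and 0 of 17 Dlx1 and 0 of 19 Dlx3 calls did, against 11.6% overall. With the start baits the count for Dlx3/4 was 13 of 49 (26.5%), and for Dlx1/2 it was 0 of 25. The Dlx5 calls under 1 Mb and the calls over 10 Mb likewise share a few bin pairs, so these counts of calls are not counts of independent contacts. A 1-Mb bin averages over many fragments, and the part of bin size in this was not tested.

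The bin with Dlx5/6 had 419 read pairs with the bin 59 Mb away that holds A930038C07Rik, where 66.8 were expected. It had 188 against 90.6 expected with the Hoxa bin, 111 against 51.9 with the Fam190a bin and 207 against 122 with the Fezf1 bin. The 25-kb bins over Dlx5 and the Dync1i1 exons had 16 read pairs against 2.59 expected (FDR 0.002093). The Dlx1/2 bin had 293 against 89.7 with the Lmx1b bin and 242 against 125 with the Lhx2 bin, and no bin pair with Hoxd was listed. The bins with Dlx3 and with Dlx4 and Tac4 had more cis bin pairs called, 34 and 23, than the Dlx5/6 bin with 12, up to 490 against 139 expected 20 Mb away, and of all these pairs only that with the Ccdc43 bin held a CHi-C call of a Dlx bait. The Dlx1/2 bin also had 52 read pairs against 27 expected with the bin on chromosome 11 that holds the Dlx4 start (FDR 0.002652). That chromosome 11 bin had 51 called bin pairs with other chromosomes, up to 55 read pairs against 18.3 expected with a bin on chromosome 4. Its pair with the Dlx1/2 bin is therefore not particular to Dlx genes. No CHi-C call of a Dlx bait matched the contact between the Dlx1/2 and Dlx4 bins.

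**Figure D5:**
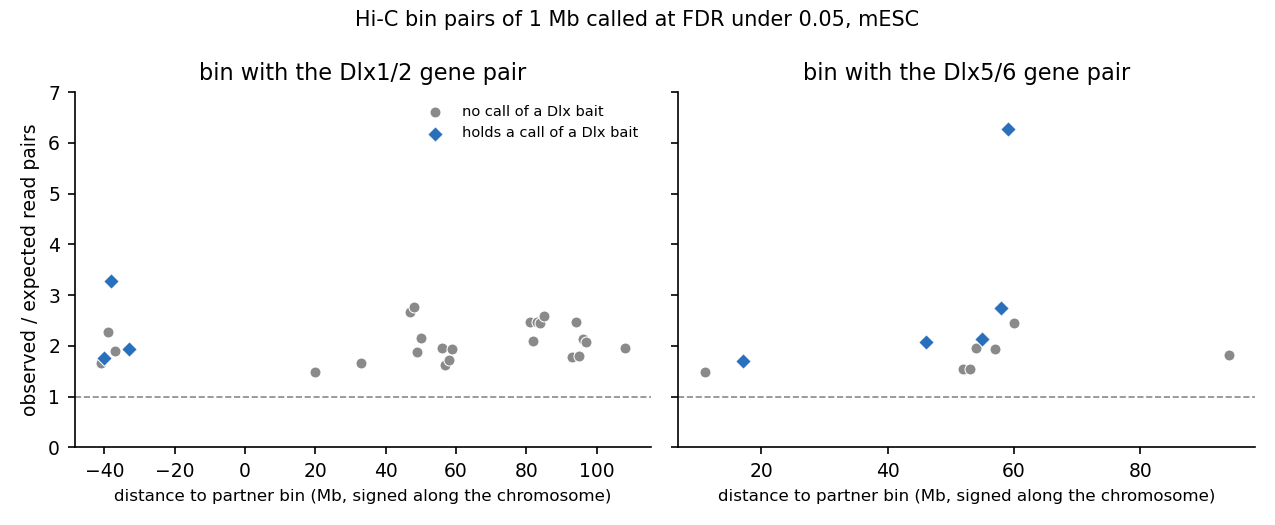
Ratio of observed to expected Hi-C read pairs (y axis) against the signed distance in Mb (x axis) for the 1-Mb bins that hold the Dlx1/2 and Dlx5/6 pairs (the Dlx3/4 bins are not drawn), over cis bin pairs called at an FDR under 0.05, with diamonds for bin pairs that hold a CHi-C call of a Dlx bait and a dashed line at a ratio of 1. The highest ratio, 6.27, is the A930038C07Rik bin of Dlx5/6, and the Lmx1b bin has the highest of Dlx1/2, 3.27.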

How the data were processed

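Promoter CHi-C was available as lists of calls for mESCs (2 biological replicates) and GM12878 cells (3), and Hi-C for 1 mESC sample. Per the labels and the study's methods, the authors mapped read pairs with HiCUP (Bowtie 1.1.0) to mm9 and hg19, kept pairs with a baited end and called interactions jointly over replicates with CHiCAGO. The deposited lists give a CHiCAGO score and a read count combined over replicates and rounded, so it is treated as a score and not as raw counts. The Hi-C lists, which the authors made with HOMER 4.7, give counts of read pairs, the expected signal (coverage modelled for distance and depth) and an FDR (adjusted p-value) for 25-kb bins up to 1 Mb and 1-Mb bins. The lists hold no library totals, and those the study states for each replicate were not used here, so depth is given by the read counts of the calls, and intervals (95% Wilson) and the limits set by 0 calls (3 counts) cover counting error only.

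Symbols were split at commas, semicolons and bars and stripped of transcript suffixes. Distances run between fragment midpoints. A fragment counted as baited where the list makes a call from it or names it. Annotated starts came from GENCODE for mm9 and for hg19. Hi-C membership required both midpoints in the bins. The members and gene lists were chosen with earlier results of these data known. By the rule used, the text names the 6 genes, the 3 highest-scored calls under 1 Mb per pair, and Hox or listed developmental partners over 1 Mb. Further partners, among them Lrp2, Prdm12 and the mouse Dync1i1 fragments, were not chosen by this rule. Parsing and overlaps were tested on simulated data. Python 3.11.15, pandas 2.3.3 and scipy 1.17.1 were used. Alternatives were a score of at least 10, at least 10 reads, each fragment pair once, the browser list, annotated starts and other Hi-C limits. The Hi-C lists hold 12 further columns of values, such as read totals per bin and Z-scores, that were not used.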

Additional observations from a re-analysis of the deposited data

How the results depend on the processing

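Of 137 comparisons of 26 results with an alternative, 84 stayed within the limits set and 53 moved. Staying within them does not mean that a value was unchanged. The Dlx5/6 median distance went from 1016 kb to 16368 kb with a score of at least 10 and with annotated starts. Both comparisons are among those that stayed. No paired analysis was possible because the calls are joint over replicates and carry no replicate number, and leaving out each replicate could not be run for the same reason. With annotated starts, which add calls, the Dlx3/4 pair still had no call with Hoxb and no call joined different Dlx pairs. The stricter score and read limits and counting each fragment pair once only remove calls. They could not have added one. The annotated starts were listed beforehand for the number of mESC calls and were added for the other results after seeing the data.

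With a score of at least 10, calls in mESCs fell to 14 for Dlx1/2, 6 for Dlx3/4 and 19 for Dlx5/6, calls over 1 Mb to 10 for Dlx1/2 and 10 for Dlx5/6, and Dlx1/2 calls over 10 Mb to 0. The bait-to-bait share was 71.8%, the median score 15.8, and 11 calls over 1 Mb ended in a listed developmental promoter. In GM12878 cells 0 calls were left for DLX1/2, 11 for DLX3/4 and 1 for DLX5/6, and 1 partner gene was shared by both cell types, against 4 by list names. The share under 1 Mb in a 25-kb Hi-C bin pair was 47.4%, and 5.39% of all mESC baits kept a call over 1 Mb.

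With at least 10 reads, 21 Dlx1/2 and 11 Dlx5/6 calls were left, with 8 and 0 over 1 Mb, and calls over 10 Mb fell to 0 for both, as did Dlx5/6 calls with Hoxa promoters. Median distances became 80.1 kb for Dlx1/2 and 19.6 kb for Dlx5/6, median reads 28 and the median score 11, and 8 calls over 1 Mb ended in a listed developmental promoter. DLX5/6 kept 3 calls in GM12878 cells, 2 partner genes were shared, 0% of Dlx calls over 1 Mb lay in a 1-Mb Hi-C bin pair, and 1.45% of all mESC baits kept a call over 1 Mb. The calls over 1 Mb of the 3 named fragments have 3 to 14 reads each, and low counts limit what can be said of any 1 of them.

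Counting each fragment pair once and using the browser list both gave 9 Dlx5/6 calls over 10 Mb, 5 Dlx1/2 calls with a Hoxd promoter, 1 Dlx5/6 call with a Hoxa promoter, a bait-to-bait share of 45.2% and 10 calls over 1 Mb with a listed developmental promoter, since a contact called from both ends then counts once.

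With annotated starts, mESC calls rose to 85 for Dlx1/2, 50 for Dlx3/4 and 66 for Dlx5/6. Calls over 1 Mb became 60, 1 and 38, calls over 10 Mb 3 for Dlx1/2 and 34 for Dlx5/6, calls with Hox promoters 21 for Hoxd and 4 for Hoxa, and 39 calls over 1 Mb had a listed developmental promoter. With adjacent Hi-C bins allowed, 50% of Dlx calls under 1 Mb lay in a 25-kb bin pair.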
